A study of Rattus norvegicus with 12 samples.

Results

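Messenger RNA of 10 serotonin (5-HT) receptor genes was measured in the periaqueductal grey of male rats whose fathers had received morphine or saline. The 10 genes, Htr1a, Htr1b, Htr1d, Htr1f, Htr2a, Htr2c, Htr3a, Htr4, Htr5b and Htr7, were taken by name as a gene family, and all 10 were among the 24540 genes tested of 41596 built from the transcript files. The periaqueductal grey is a midbrain region that takes part in descending pain control and in opioid analgesia, and it borders the dorsal raphe, where many of the brain's serotonin neurons lie. PolyA RNA was sequenced from 6 morphine-sired rats (libraries morphine-sired 1 to 6) and 6 saline-sired rats (saline-sired 1 to 6). All 12 were male Sprague Dawley rats, and the treatment named in the labels is that of the sire, not of the animal sequenced. The labels name no litter, sire, age or dose. Each of the 12 animals was taken as an independent replicate in the tests, which could not be checked. Sons of 1 sire would not be independent, and p-values and intervals could then be too narrow. The spread between libraries may in part be technical. In whole tissue, fewer cells of a type and less RNA per cell cannot be told apart.

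Serotonin receptors pass on the signal of serotonin in distinct ways. The 5-HT1 receptors couple to Gi/o proteins, which lower cyclic AMP and open inward-rectifier potassium channels, the 5-HT2 receptors couple to Gq and phospholipase C, and the 5-HT4 and 5-HT7 receptors couple to Gs and raise cyclic AMP. The 5-HT3 receptor is the family's ion channel, and the 5-HT5 receptors are placed with the Gi/o-coupled ones. In the midbrain, Htr1a encodes the autoreceptor on the cell bodies of serotonin neurons, and Htr1b encodes an autoreceptor on axon terminals.

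Some libraries stood apart in markers of neighbouring cells. Tph2, the enzyme that starts serotonin synthesis in neurons, had 0.489 to 195 TPM (a transcript abundance scaled for transcript length and library total) in morphine-sired and 0.45 to 445 TPM in saline-sired libraries. The summed level of the 8 serotonergic neuron markers ran from 28.9 to 458 TPM in morphine-sired and from 22.3 to 999 TPM in saline-sired libraries. By the mean log2 level of these markers, morphine-sired 2, saline-sired 2 and saline-sired 3 were the highest, though not in every marker. Gata2 was 8.85 TPM in morphine-sired 2 against 11.8 TPM in morphine-sired 1, and Slc22a3 was 2.48 against 3.0 TPM. Gata3 was 13.4 TPM in morphine-sired 2 against 15.7 TPM in morphine-sired 5. Fev, a transcription factor of serotonin neurons, was listed at 0 in morphine-sired 1 and 6 and in saline-sired 1 and 6, and Slc6a4, the serotonin transporter, in saline-sired 6. Mean levels of all 8 were lower in the morphine-sired group, and limma called 0 of them. Saline-sired 2 alone carried the cerebellar granule cell genes Gabra6 (37.6 TPM) and Cbln3 (33.8 TPM), with Gabra6 at most 0.316 TPM in every other library. Morphine-sired 2 had the highest sum over the 12 choroid plexus genes, 2140 TPM, and Ttr made up 1760 TPM of it. Ttr was 413 TPM in saline-sired 2 and at most 62.5 TPM elsewhere. Most genes of the list were highest in morphine-sired 2. Folr1, Prlr and Clic6 were highest in morphine-sired 3 (28.3, 3.88 and 14.5 TPM), where Ttr was 23.8 TPM. Sequencing depth was 4.39 to 6.03 gigabases per library.

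The levels of the receptor genes spanned a wide range, with Htr2c far above the rest. Htr2c, the Gq-coupled 5-HT2C receptor, was the highest in all 12 libraries, with a mean of 104 TPM, and made up 56.2% on average of the summed TPM of the 10 genes (range 42.5% to 65.9%). Htr1b followed at 22.6 TPM and Htr1a at 16.6 TPM, then Htr2a at 9.65, Htr7 at 9.62, Htr1d at 7.11, Htr3a at 6.19, Htr4 at 4.51, Htr5b at 1.69 and Htr1f at 1.3 TPM. This order covers the 10 genes alone and leaves out other serotonin receptor genes with levels inside its range. Htr5a averaged 10.7 TPM in morphine-sired and 9.92 TPM in saline-sired rats, and Htr6 averaged 2.17 and 2.27 TPM. Htr2c lay at the 93.0 percentile of all tested genes by level, Htr1b at 71.2, Htr5b at 21.8 and Htr1f at 14.7. The sum over the 10 genes was 141 to 212 TPM in morphine-sired and 168 to 216 TPM in saline-sired libraries, lowest in morphine-sired 2.

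Neighbours in this order were compared within libraries by an exact sign-flip permutation test on log2(TPM + 1), two-sided, adjusted over the 9 neighbouring pairs. Htr2c exceeded Htr1b by 2.13 ± 0.38 on the log2 scale (SD over libraries), in 12 of 12 libraries (exact adjusted p 0.00439). Htr1b exceeded Htr1a by 0.48 ± 0.33 in 10 of 12 libraries (exact adjusted p 0.00549). Htr1a exceeded Htr2a by 0.71 ± 0.63 in 11 of 12 (exact adjusted p 0.00439). Lower in the order, Htr3a exceeded Htr4 by 0.38 ± 0.37 (11 of 12, exact adjusted p 0.0114) and Htr4 exceeded Htr5b by 1.26 ± 0.90 (10 of 12, exact adjusted p 0.00549). The other neighbours did not differ beyond their spread. The log2 difference was -0.02 ± 0.54 for Htr2a over Htr7, 0.43 ± 0.69 for Htr7 over Htr1d, 0.14 ± 0.43 for Htr1d over Htr3a and -0.00 ± 1.03 for Htr5b over Htr1f (exact adjusted p 0.994, 0.0718, 0.366 and 0.998). Htr5b was above Htr1f in 3 of 12 libraries, and its median of 0.873 TPM was below that of Htr1f, 1.29 TPM. With annotated transcripts alone, Htr1b exceeded Htr1a by 0.24 (exact adjusted p 0.186), and Htr4, most of which rests on an assembled transcript, had a log2 difference of -0.18 over Htr5b (exact adjusted p 0.607). Without morphine-sired 2, Htr7 exceeded Htr1d by 0.52 (exact adjusted p 0.0234). The transcript models behind these levels differ in length, with 1269 bases for Htr1a against 4619 bases for Htr2a. How complete each model is, and what that does to the order, was not tested.

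**Figure D1:**
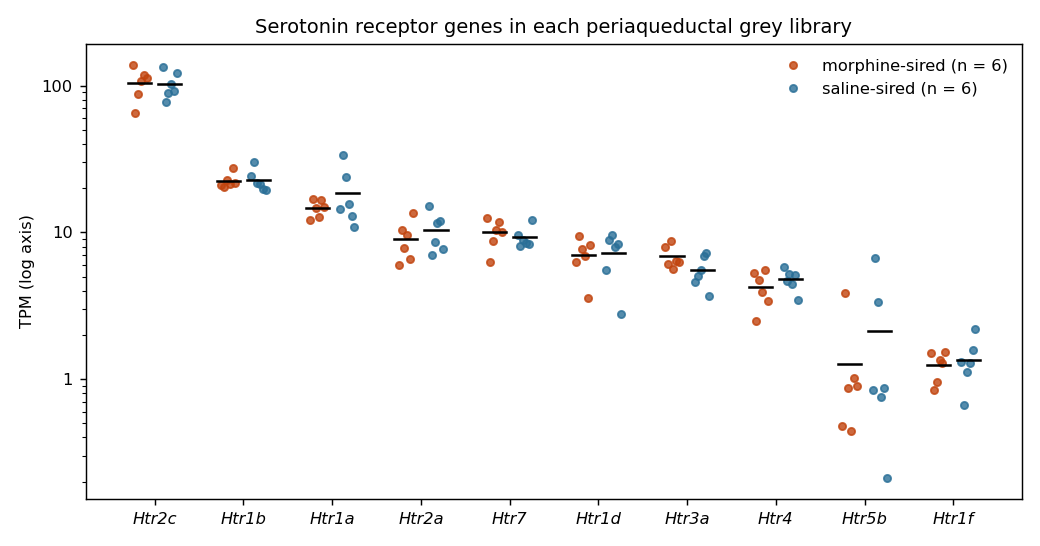
Level of each of the 10 serotonin receptor genes in each library, in TPM on a log axis, morphine-sired left of saline-sired within each gene, with genes in order of their mean. Points are libraries and lines mark group means. Htr2c stands above the rest in both groups, and Htr5b has the widest scatter.

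No receptor gene differed between the offspring groups by the test. In limma's fit over all genes, 0 of the 10 had an adjusted p under 0.05, where 0% of the 24540 genes did, and the smallest adjusted p of any gene was 0.357. At an unadjusted p under 0.05, limma counted 0 of the 10 receptor genes, against 3.22% of all genes. The groups overlapped for all 10, while 0.0896% of all genes had groups that did not overlap. Mean log2(TPM + 1) was higher in morphine-sired rats for 4 and lower for 6, with a median log2 difference (morphine-sired minus saline-sired) of -0.03 against -0.00 over all genes. The 95% interval lay between -1 and 1 on the log2 scale for 9 of the 10, all but Htr5b. The limma adjusted p was 0.9998 for each gene. Beside the log2 differences below, the ± is the standard error, every level is in TPM with SD over 6 libraries a group, and positions are on Rnor_6.0.

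Among the Gi/o-coupled receptors, Htr1a (chromosome 2, 36246628 to 36247896, plus strand, a single exon) had 12.1, 16.8, 14.7, 12.8, 16.6 and 14.8 TPM in morphine-sired 1 to 6, against 33.9 and 24.0 TPM in saline-sired 2 and 3 and 10.9 to 15.5 TPM in the other 4 saline-sired rats. The groups overlapped, the saline-sired values lay on both sides of the morphine-sired ones, and the 2 highest libraries were also high in serotonergic markers. The means were 14.6 ± 1.93 TPM in morphine-sired and 18.6 ± 8.69 TPM in saline-sired rats, a log2 difference of -0.24 ± 0.22 (95% interval -0.72 to 0.25, exact permutation p 0.407). Without the 3 libraries highest in serotonergic markers the log2 difference of Htr1a was 0.07, and with the choroid plexus marker score as a term it was -0.44 (limma, unadjusted p 0.0347, where 3.79% of genes had one under 0.05; adjusted p 0.999). Htr1b (chromosome 8, 89095411 to 89132154, minus strand) had a lowest, median and highest level of 20.5, 21.7 and 27.4 TPM in morphine-sired rats, against 19.4, 21.4 and 30.3 TPM in saline-sired rats. It was the steadiest of the 10, with a coefficient of variation of 14.4% over the 12 libraries and 1 high library in each group, morphine-sired 5 and saline-sired 2. Its log2 difference was -0.01 ± 0.11 (95% interval -0.24 to 0.22).

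Htr1d, which encodes a receptor found on nerve terminals and targeted by triptan drugs, lies in a single exon (chromosome 5, 154800226 to 154801350, plus strand). Its lowest, median and highest level was 3.58, 7.30 and 9.50 TPM in morphine-sired rats, against 2.79, 8.15 and 9.58 TPM in saline-sired rats. Each group had 1 low library, morphine-sired 5 and saline-sired 6, and the log2 difference was 0.00 ± 0.26 (95% interval -0.56 to 0.57). Htr1f (chromosome 11, 1982113 to 1983513, minus strand), another triptan-class target, had 0.842, 1.32 and 1.54 TPM in morphine-sired rats, against 0.663, 1.29 and 2.18 TPM in saline-sired rats. The lowest values were those of morphine-sired 2 and saline-sired 2, the log2 difference was -0.05 ± 0.16 (95% interval -0.40 to 0.30), and the level rests on 2.1 to 6.2 kilobases of reads per library. Htr5b (chromosome 13, 37479758 to 37492680, minus strand, 2 exons) encodes a receptor that is functional in rodents. It had 0.477, 3.86, 0.873, 0.444, 1.01 and 0.898 TPM in morphine-sired 1 to 6, against 0.845, 6.69, 3.37, 0.760, 0.874 and 0.211 TPM in saline-sired 1 to 6. Morphine-sired 2, saline-sired 2 and saline-sired 3 stood above 3 TPM and the other 9 near or below 1 TPM, a 31.7-fold range with overlapping groups. The log2 difference was -0.29 ± 0.44 (95% interval -1.25 to 0.67, exact permutation p 0.595), 0.03 without saline-sired 2 and 0.07 without all 3 libraries. With the choroid plexus marker score as a term it was -0.78 (limma, unadjusted p 0.0177, adjusted p 0.999), and the level rests on 0.9 to 34.3 kilobases of reads.

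Of the Gq-coupled receptors, Htr2a (chromosome 15, 56666012 to 56735382, plus strand, 3 exons), the main target of classical psychedelic drugs, had 5.98, 8.69 and 13.5 TPM in morphine-sired rats, against 7.02, 10.1 and 15.1 TPM in saline-sired rats. The groups overlapped over most of their range, with morphine-sired 6 and saline-sired 1 highest, and the log2 difference was -0.18 ± 0.21 (95% interval -0.64 to 0.27). Htr2c (chromosome X, 118084467 to 118318039, plus strand) had 139, 64.7, 88.4, 107, 119 and 112 TPM in morphine-sired 1 to 6, against 135, 77.7, 88.9, 103, 92.1 and 121 TPM in saline-sired 1 to 6. Morphine-sired 2 and saline-sired 2 were the lowest and morphine-sired 1 and saline-sired 1 the highest of their groups. The means were 105 ± 25.5 TPM in morphine-sired and 103 ± 21.3 TPM in saline-sired rats, a log2 difference of 0.01 ± 0.18 (95% interval -0.37 to 0.40). Choroid plexus is known for a high level of Htr2c, and its part in these levels was not tested. Morphine-sired 2 had the least Htr2c of the 12 libraries and the highest sum over the choroid plexus genes. It was also among the 3 libraries highest in serotonergic markers. Its sum over 7 dopamine and noradrenaline neuron genes was the highest of the 12 libraries (545 TPM), and that over 5 ependymal genes the lowest (30.3 TPM). Not every gene of these lists followed, with Nr4a2 at 12.8 TPM against 17.6 TPM in saline-sired 1, and Rarres2 at 23.8 against 11.8 TPM. This 1 library therefore cannot tell such influences apart.

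Htr3a (chromosome 8, 53211438 to 53223804, minus strand, 9 exons) encodes the subunit that every functional 5-HT3 channel needs. It had 7.95, 6.10, 8.73, 5.66, 6.41 and 6.27 TPM in morphine-sired 1 to 6, against 4.57, 5.04, 5.56, 6.93, 7.28 and 3.71 TPM in saline-sired 1 to 6. All 6 morphine-sired libraries lay above the saline-sired median of 5.30 TPM, but saline-sired 4 and 5 lay among them. The means were 6.85 ± 1.21 TPM in morphine-sired and 5.52 ± 1.38 TPM in saline-sired rats. This was the smallest p of the 10 genes, with a log2 difference of 0.28 ± 0.15 (95% interval -0.04 to 0.60, exact permutation p 0.0996, where the smallest p that 6 against 6 allows is 0.00216). Without morphine-sired 1, saline-sired 1 and saline-sired 6 the log2 difference was 0.08.

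Of the Gs-coupled receptors, Htr4 (chromosome 18, 57637400 to 57826343, plus strand) had 2.49, 4.35 and 5.58 TPM in morphine-sired rats, against 3.46, 4.89 and 5.79 TPM in saline-sired rats. The lowest values were those of morphine-sired 2 and saline-sired 6, and the log2 difference was -0.16 ± 0.16 (95% interval -0.51 to 0.18). Htr7 (chromosome 1, 254547620 to 254671778, minus strand) had 6.25, 10.2 and 12.6 TPM in morphine-sired rats, against 8.02, 8.68 and 12.2 TPM in saline-sired rats. The morphine-sired range enclosed the saline-sired one, with morphine-sired 2 the lowest and morphine-sired 1 the highest of the 12. The log2 difference of Htr7 was 0.08 ± 0.15 (95% interval -0.24 to 0.40).

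**Figure D2:**
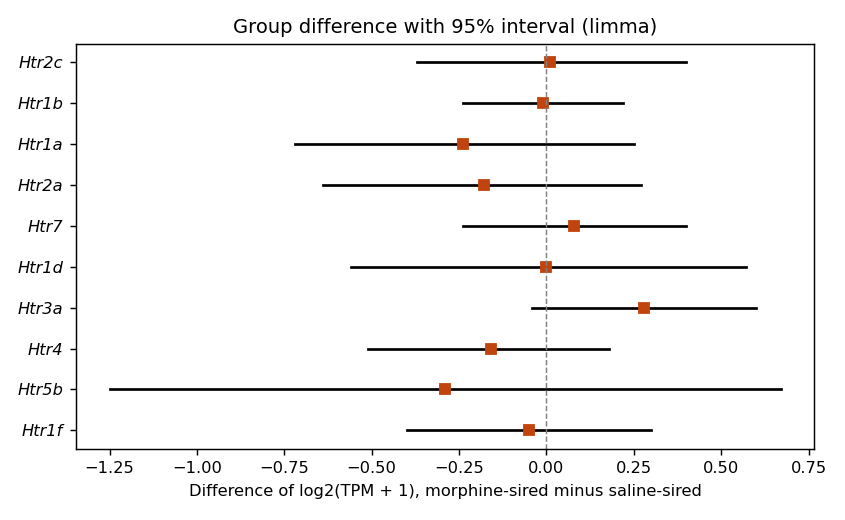
Log2 difference of each receptor gene, morphine-sired minus saline-sired, on the log2(TPM + 1) scale, with its 95% interval from limma. All 10 intervals include 0, and that of Htr5b, from -1.25 to 0.67, is the widest.

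Variation between libraries of a group was uneven across the family. The residual SD on the log2 scale was 0.84 for Htr5b, at the 96.1 percentile of all tested genes, and 0.49 for Htr1d and 0.43 for Htr1a, at the 80.2 and 74.6 percentiles. That of Htr1b was 0.19, at the 39.1 percentile, where the median over all genes was 0.24.

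This variation followed the serotonergic neuron markers for part of the family. A marker score was formed for each library as the mean of log2(TPM + 1) over the 8 markers, each less its own mean over the 12 libraries. Htr5b and Htr1a were high where the score was high, and Htr2c, Htr7 and Htr1f were low there. Over the 12 libraries, Pearson's r with the score was 0.90 for Htr5b (permutation p 0.00021, adjusted 0.0042; Spearman's rho 0.73, permutation p 0.00826, adjusted 0.0359) and 0.82 for Htr1a (permutation p 0.00073, adjusted 0.0073; rho 0.75, permutation p 0.00672, adjusted 0.0336). For Htr2c r was -0.90 (permutation p 5e-05, adjusted 0.003) and rho was -0.95 (permutation p 1e-05, the smallest that the resamples can give, adjusted 0.0006). For Htr7 r was -0.79 (permutation p 0.00186, adjusted 0.0125; rho -0.83, permutation p 0.00159, adjusted 0.0136), and for Htr1f it was -0.81 (permutation p 0.00073, adjusted 0.0073; rho -0.78, permutation p 0.00367, adjusted 0.0226). Htr1d had r 0.68 (permutation p 0.0138, adjusted 0.0627) and rho 0.84 (permutation p 0.00114, adjusted 0.0127). These are from 60 relations between the 10 genes and 6 marker scores, of which 12 passed an adjusted p of 0.05 by Pearson's r and 14 by Spearman's rho.

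Without the 2 libraries farthest from the median score, r was 0.78 for Htr5b, 0.74 for Htr1a, -0.87 for Htr2c, -0.72 for Htr7 and -0.61 for Htr1f. Taken as deviations from the group means, r was 0.90, 0.81, -0.92, -0.79 and -0.86 for the same genes in that order. Leaving out the 3 libraries highest in these markers, a step added after the data had been seen, separated the genes further. Htr2c kept r -0.88 over the other 9 libraries (exact permutation p 0.00158, adjusted 0.0158; rho -0.92, exact permutation p 0.00131, adjusted 0.0131). Htr7 had r -0.79 (exact permutation p 0.0173, adjusted 0.0866). Htr3a had r 0.66 (exact permutation p 0.0526, adjusted 0.175) and Htr1d 0.58 (exact permutation p 0.105, adjusted 0.21). Htr5b had r 0.45 (exact permutation p 0.243, adjusted 0.406), Htr1a 0.38 (exact permutation p 0.308, adjusted 0.44) and Htr1f -0.57 (exact permutation p 0.101, adjusted 0.21). For Htr5b and Htr1a the relation over 12 libraries thus rests in large part on morphine-sired 2, saline-sired 2 and saline-sired 3. In those 3 libraries Htr5b had 3.37 to 6.69 TPM, against 0.211 to 1.01 TPM in the other 9, and Htr1a had 16.8 to 33.9 TPM, against 10.9 to 16.6 TPM. The levels of Htr1f in the 3 libraries overlapped those in the other 9.

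**Figure D3:**
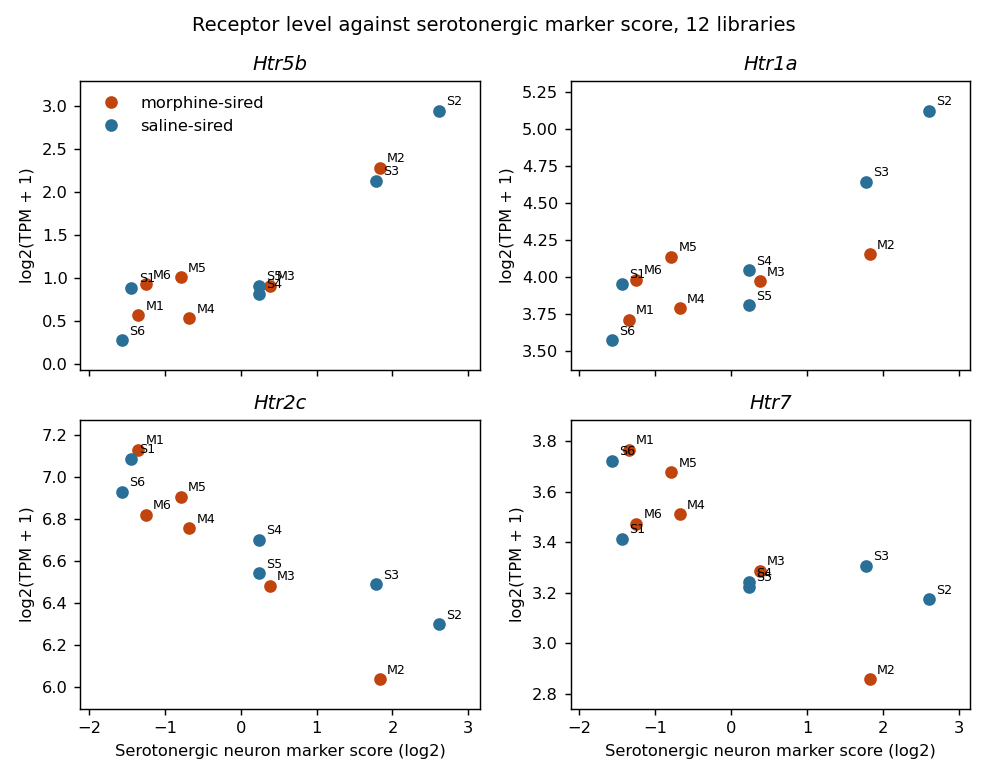
Level of receptor genes, as log2(TPM + 1), against the serotonergic marker score of each library (mean log2 deviation over 8 markers), with M for morphine-sired and S for saline-sired libraries and their number. Htr5b and Htr1a are highest in M2, S2 and S3, while Htr2c and Htr7 decline along the score.

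The serotonergic score was itself tied to other marker scores, so these relations are not separate from one another. It had r -0.85 with the score of thalamic, habenular and collicular neuron markers and 0.66 with that of choroid plexus markers. Not every thalamic, habenular and collicular marker followed its score, which was lowest in morphine-sired 2 (-1.12). Tcf7l2, Gbx2 and Lhx9 were lowest in that library, but Pou4f1 was highest there (12.6 TPM). Pou4f1 was lowest in morphine-sired 1 (3.17 TPM) and saline-sired 6 (3.23 TPM), where the score was highest. The score thus does not stand for each of these regions. With the thalamic, habenular and collicular score, r was 0.88 for Htr7 (permutation, adjusted p 0.0036), 0.86 for Htr2c (0.0073), 0.81 for Htr1f (0.0123), -0.77 for Htr5b (0.0125) and -0.71 for Htr1d (0.0368). By rank, Htr1a also passed with this score (r -0.66, permutation, adjusted p 0.064; rho -0.88, adjusted p 0.0098). Over the 9 libraries without the 3 highest in serotonergic markers, r with this score was 0.80 for Htr7, 0.68 for Htr2c and 0.73 for Htr1f. It was -0.79 for Htr1a, -0.76 for Htr5b and -0.59 for Htr1d, and these values over 9 libraries were not tested. With the choroid plexus score, r was -0.78 for Htr1f (permutation, adjusted p 0.0144) and -0.77 for Htr2c (0.0199), the second at -0.32 without the 2 farthest libraries. Their rho was -0.78 (permutation, adjusted p 0.0226) and -0.66 (0.0828), and Htr1a passed by rank alone (r 0.51, adjusted p 0.256; rho 0.74, adjusted p 0.0359). The choroid plexus list of 12 genes summed to 172 to 2140 TPM in morphine-sired and 210 to 634 TPM in saline-sired libraries, with 11 higher in mean in morphine-sired rats and 0 called by limma. At an unadjusted p under 0.05 limma counted 3 of the 12, all higher in morphine-sired rats, against 3.22% of all genes. These were Folr1 (log2 difference 0.73 ± 0.27), Prlr (0.55 ± 0.21) and Clic6 (0.71 ± 0.29). The 8 thalamic, habenular and collicular genes tested summed to 42.7 to 284 TPM in morphine-sired and 60.8 to 441 TPM in saline-sired libraries, with 3 higher and 5 lower in mean and 0 called by limma. The part of any of these cell types in the receptor levels was not tested. The cholinergic score split the libraries into 9 and 3 (morphine-sired 1, saline-sired 1 and saline-sired 6 low), and within the 9 none of the 10 genes passed the threshold.

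By Pearson's r, receptor genes varied together in 2 pairs and inversely in 4. Of 45 pairs, 6 passed an adjusted p of 0.05 by Pearson's r over the 12 libraries, 5 by Spearman's rho and 6 by deviations from the group means. Htr1a and Htr5b went together (r 0.91, permutation p 9e-05, adjusted 0.00405; rho 0.90, permutation p 0.00024, adjusted 0.0108; r 0.74 without the 2 farthest libraries). Both genes were highest in morphine-sired 2, saline-sired 2 and saline-sired 3, and the 2 left out were saline-sired 2 and 3. This pair was not examined without all 3. Htr2c and Htr7 went together (r 0.88, permutation p 0.0002, adjusted 0.0045; rho 0.87, permutation p 0.00053, adjusted 0.0119; r 0.76 without the 2 farthest libraries). The other 4 pairs were inverse, with r -0.82 for Htr1f and Htr5b, -0.78 for Htr1a and Htr1f, -0.77 for Htr2c and Htr5b, and -0.75 for Htr1d and Htr7 (permutation, adjusted p 0.0115, 0.0238, 0.0243 and 0.0243). Their rho was -0.66, -0.81, -0.66 and -0.77 (permutation, adjusted p 0.0992, 0.0255, 0.0967 and 0.041), so those of Htr5b with Htr1f and Htr2c did not pass by rank. Htr1d and Htr2c passed by rank alone (rho -0.80, permutation p 0.00227, adjusted 0.0255; r -0.65, permutation p 0.0211, adjusted 0.0865; r -0.86 without the 2 farthest libraries). Without the 2 farthest libraries r of the 4 inverse pairs was -0.68, -0.79, -0.53 and -0.69 in the order first given.

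**Figure D4:**
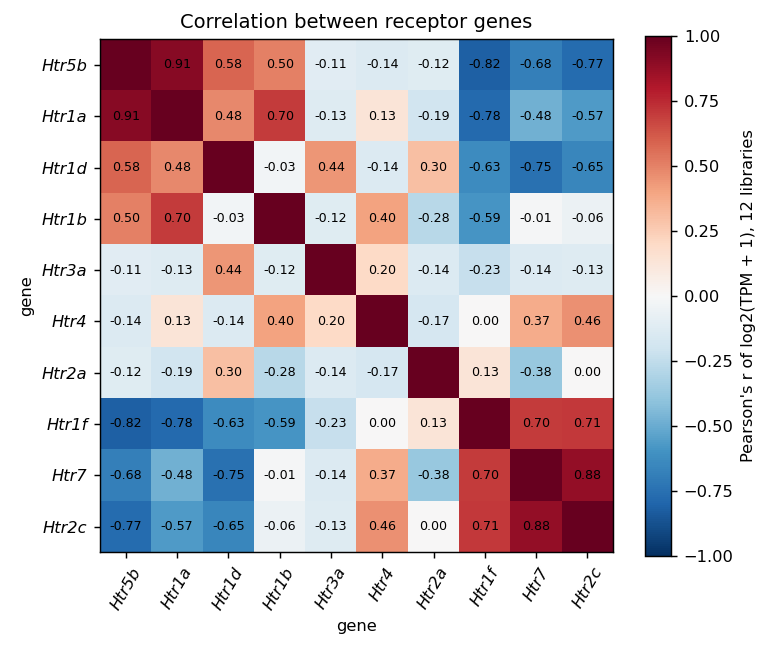
Pearson's r between the receptor genes over the 12 libraries, on log2(TPM + 1). Htr1a with Htr5b (0.91) and Htr2c with Htr7 (0.88) are the highest positive pairs, and Htr1f with Htr5b (-0.82) is the most negative.

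Promoter windows are shown for the 4 genes that passed with the serotonergic score by Pearson's r and matched the sequence table, Htr5b (high with the markers) and Htr2c, Htr7 and Htr1f (low with them), a choice made after these values were seen. They are the 250 bases before the annotated start, 5′ to 3′ on the gene's strand, from RefSeq on GRCr8 (a different build from the coordinates above), at chr13:35252587-35252836 (minus strand) for Htr5b, chrX:115452940-115453189 (plus strand) for Htr2c, chr1:243173049-243173298 (minus strand) for Htr7 and chr11:16090666-16090915 (minus strand) for Htr1f. Capitals mark GGAA or its reverse complement TTCC, the core recognised by ETS factors, the family Fev belongs to.
Htr5b: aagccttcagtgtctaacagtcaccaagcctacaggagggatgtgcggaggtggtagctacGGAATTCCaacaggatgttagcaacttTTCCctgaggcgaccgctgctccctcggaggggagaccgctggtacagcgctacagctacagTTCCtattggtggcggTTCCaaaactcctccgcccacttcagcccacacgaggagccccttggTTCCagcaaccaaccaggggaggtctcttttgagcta
Htr2c: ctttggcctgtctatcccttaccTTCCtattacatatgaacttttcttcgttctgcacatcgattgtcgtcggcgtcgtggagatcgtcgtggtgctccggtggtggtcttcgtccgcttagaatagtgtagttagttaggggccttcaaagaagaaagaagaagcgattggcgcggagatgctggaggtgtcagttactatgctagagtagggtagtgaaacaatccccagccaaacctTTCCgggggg
Htr7: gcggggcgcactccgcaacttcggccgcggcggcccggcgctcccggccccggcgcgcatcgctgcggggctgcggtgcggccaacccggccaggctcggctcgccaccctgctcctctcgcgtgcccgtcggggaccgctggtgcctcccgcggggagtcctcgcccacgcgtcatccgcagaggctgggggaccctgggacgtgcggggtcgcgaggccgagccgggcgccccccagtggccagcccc
Htr1f: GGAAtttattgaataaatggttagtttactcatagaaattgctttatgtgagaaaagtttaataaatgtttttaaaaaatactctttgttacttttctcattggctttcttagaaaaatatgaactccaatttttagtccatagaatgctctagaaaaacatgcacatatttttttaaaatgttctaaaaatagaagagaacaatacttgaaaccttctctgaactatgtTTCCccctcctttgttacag
The core occurred 6 times in the window of Htr5b, where GGAA and TTCC adjoin at 1 place as GGAATTCC, 2 times in that of Htr2c, 0 times in that of Htr7 and 2 times in that of Htr1f. Of the other 2 matched genes, Htr1b had 6 and Htr1d 4. Such a short core is common, and 93.2% of 33469 windows of this length hold it on either strand. The longer CGGAAG or CTTCCG, which contains the core, was in the window of Htr1b alone among the 6, and in 13.9% of all windows. Matches are letters in a window and do not show binding. Whether transcription begins at these annotated starts was not tested, so a window may not be the promoter in use. GC content was 56.8% for Htr5b, 50.4% for Htr2c, 80.8% for Htr7 and 27.2% for Htr1f, against a median of 51.2% over all windows.

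Transcript models added detail for 4 genes, since 6 of the 10 had a single model. Of 21 models, 18 passed the filter on low values, and limma called 0 of them, against 0.00198% of 50419 transcripts at an adjusted p under 0.05. At an unadjusted p under 0.05 limma also counted 0 of the 18, against 3.77% of all transcripts. For Htr2c, the annotated model ENSRNOT00000065293 has 7 exon blocks and 4379 bases and carried 61.3% of the gene's TPM on average. The assembled model MSTRG.26613.1 lacks 2 adjoining blocks of 302 and 10 bases (chromosome X, 118200256 to 118200572, with a gap between them), 312 bases in all. With other ends it is 4489 bases long. This model without the blocks took 72.4, 0, 9.3, 38.4, 19.5 and 8.9% of Htr2c TPM in morphine-sired 1 to 6, against 14.8, 0, 23.2, 74.5, 17.7 and 69.2% in saline-sired 1 to 6. Morphine-sired 1, saline-sired 4 and saline-sired 6 carried most of their Htr2c as the model without the blocks, and morphine-sired 2 and saline-sired 2 had it listed at 0, so the split crossed the groups. Its log2 difference was -0.38 ± 1.23 and that of the 7-block model 0.35 ± 0.51. Only those same 3 libraries had the annotated model ENSRNOT00000090922 above 0, at 5.31 TPM in morphine-sired 1 and at 3.68 and 4.95 TPM in saline-sired 4 and 6. The assembled MSTRG.26613.4, with 2 exons, took 8.7% on average, with a log2 difference of 0.08 ± 0.37. StringTie divides reads between overlapping models, so these shares are estimates, and reads across single junctions were not used here.

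**Figure D5:**
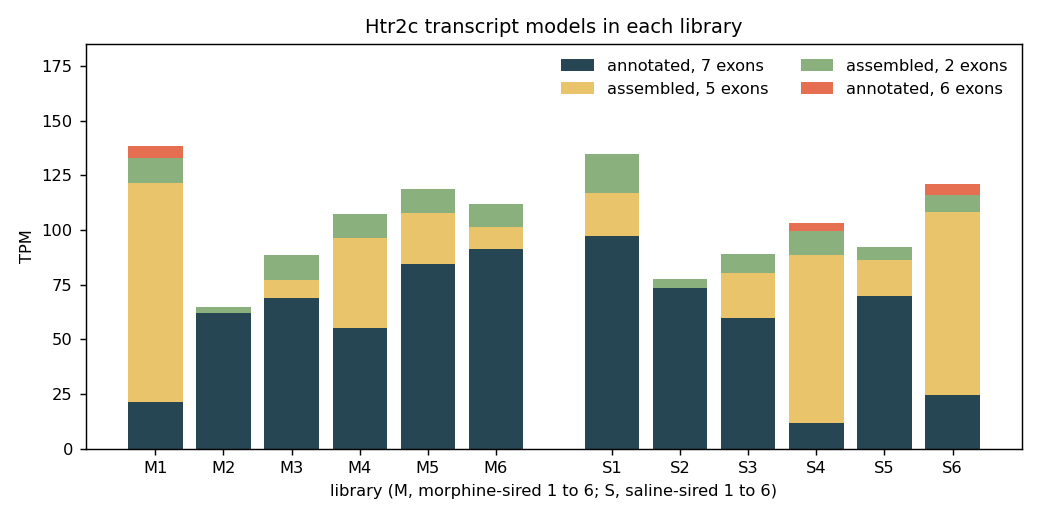
TPM of each Htr2c transcript model, stacked, in morphine-sired 1 to 6 (M1 to M6) and saline-sired 1 to 6 (S1 to S6). The assembled model with 5 exons takes most of the level in M1, S4 and S6 and is listed at 0 in M2 and S2.

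For Htr7, ENSRNOT00000025493 carried 54.8% and ENSRNOT00000025450 31.5% of the gene's TPM on average, with log2 differences of 0.34 ± 0.20 and -0.25 ± 0.21 (limma, unadjusted p 0.124 and 0.247). The assembled MSTRG.2985.3 carried 12.9% of Htr7 (-0.27 ± 0.29). For Htr4, the assembled MSTRG.11538.1, of 8265 bases, carried 77.3% on average and had a log2 difference of 0.06 ± 0.14. The annotated Htr4 model ENSRNOT00000025892 had -0.51 ± 0.23 (limma, unadjusted p 0.0512). With annotated models alone, Htr4 had a log2 difference of -0.58 (limma, unadjusted p 0.0188 and adjusted p 1.0), where 3.53% of genes had an unadjusted p under 0.05. For Htr1b, the annotated ENSRNOT00000017411 carried 85.4% and had a log2 difference of 0.08 ± 0.21, against -0.33 ± 0.60 for the assembled MSTRG.23997.1 and -0.21 ± 0.63 for MSTRG.23997.2.

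The genes most like each receptor were found by Pearson's r over the 12 libraries among other named genes averaging 5 TPM or more, as a description only. The 12 points share tissue makeup and library depth. Htr5b was most like Ddc (r 0.94, rho 0.71), Fev (0.93, 0.70) and Gch1 (0.93, 0.73), and Htr1a was most like Fam107b (0.93, 0.83), Maob (0.91, 0.67) and Insyn2 (0.91, 0.74). Htr2c was most like Lrrtm3 (0.93, 0.91), Gabra3 (0.93, 0.92) and Slc6a7 (0.92, 0.90), and Htr7 was most like Cntnap1 (0.97, 0.96), Sv2a (0.95, 0.97) and Fam193a (0.94, 0.90). For Htr1b these were Cnr1 (0.93, 0.86), Eif4b (0.92, 0.91) and Stim2 (0.91, 0.73), and for Htr1d they were Stmn2 (0.94, 0.94), Mapk10 (0.90, 0.84) and Cdh22 (0.88, 0.91). For Htr1f they were Wnt2b (0.93, 0.90), Galnt14 (0.93, 0.89) and Tln2 (0.92, 0.94), and for Htr2a they were Eif3j (0.92, 0.94), Lactb2 (0.91, 0.94) and Reep3 (0.90, 0.87). Htr4 was most like Tmem168 (0.92, 0.87) and Mllt6 (0.88, 0.80). Htr3a had the lowest r of the 10, with RT1-A1 (0.85, 0.79), Ivns1abp (0.84, 0.68) and Rgs19 (0.84, 0.80).

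The rest of the serotonin pathway gave no call either. Of the other receptor genes, Htr5a averaged 10.7 ± 1.27 TPM in morphine-sired and 9.92 ± 0.614 TPM in saline-sired rats (log2 difference 0.09 ± 0.08), and Htr6 averaged 2.17 ± 0.576 and 2.27 ± 0.24 TPM in the same order (-0.06 ± 0.13). Htr2b was near 0 and Htr3b, whose product joins that of Htr3a in mixed channels, was listed at 0 in all 12 libraries. Of 12 genes of serotonin synthesis, transport and breakdown, limma called 0, and 2 had a higher and 10 a lower mean in morphine-sired rats (median log2 difference -0.16). Tph2 averaged 40.3 ± 77.2 TPM in morphine-sired and 115 ± 178 TPM in saline-sired rats, with a log2 difference of -1.37 ± 1.60. The smallest p of that list were those of Aldh2 (0.14 ± 0.14), Slc29a4, a low-affinity monoamine transporter (0.23 ± 0.24), and Slc18a2, the vesicular monoamine transporter (-0.69 ± 0.76). Of 28 receptor-coupled G proteins and effectors, 0 were called, 16 were higher and 12 lower in mean (median log2 difference 0.01), with the smallest p for the adenylyl cyclase Adcy3 (0.10 ± 0.06), Gnai3 (0.09 ± 0.07) and Plcb3 (0.10 ± 0.07). Of 18 receptor-binding and regulatory genes, 0 were called, 11 were higher and 7 lower in mean (median 0.03), with the smallest p for the receptor kinase Grk5 (-0.14 ± 0.08), Dlg3 (0.19 ± 0.13) and Cc2d1a (0.13 ± 0.09).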

How the data were processed

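Tissue was frozen after dissection and polyA RNA libraries were prepared with NEBNext Ultra reagents, per the labels' protocols. Per the submitters' processing notes, Rnor_6.0 was the build and the tools included Trimmomatic 0.39 for trimming, HISAT2 2.2.0 for alignment, and StringTie 2.1.2. The file headers give StringTie 1.3.6 instead. Read pairing and strandedness are not given in the sources used here. For each library the authors deposited coverage, FPKM and TPM of 76232 transcripts (41063 annotated, 35169 assembled). The log2 table the authors deposited served for gene symbols, and the 2 columns of it that were compared matched log2(FPKM + 1) within 4.9e-08.

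Gene levels are sums of the deposited TPM of all transcripts with that symbol, including assembled transcripts of a locus with 1 symbol. Genes averaging 0.5 TPM or more entered a limma 3.58.1 fit (R 4.3.3, trend, two-sided, Benjamini-Hochberg over all genes) on log2(TPM + 1), which understates changes of low genes. The fit was checked on simulated data, drawn as independent normal values for each gene and library. Such data hold no shared tissue makeup or shared sires, so the check does not cover those. Correlations used 100000 permutations, or all of them for 9 libraries, in Python 3.11.15 with scipy 1.17.1. Depth was taken from the ratio of coverage to FPKM. No 2 libraries were identical.

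The receptor genes and all lists were chosen with earlier results of these data known. Named were all 10 receptor genes, their transcripts averaging 0.5 TPM or more, the 3 genes most like each (1 for Htr4 is not reported here), and up to 3 genes of each other list with the smallest p. Htr2b, Htr3b, Tph2, Fev, Ttr, Slc6a4, Gabra6, Cbln3 and AABR07044389.1 were named outside that rule, after their values were seen. The same holds for Gata2, Gata3, Slc22a3, Pou4f1, Tcf7l2, Gbx2 and Nr4a2. Alternatives were another pseudocount, no filter, annotated transcripts alone, quantile normalization, omitted libraries and marker scores as terms. Promoter windows come from RefSeq on GRCr8, where 6 of the 10 genes matched.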

Additional observations from a re-analysis of the deposited data

Results flagged for a closer look

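In 20 sets of 6 libraries (10 receptor genes in each group), the highest and lowest library were compared with the rest by Dixon's ratio of gap to range, against its 95% critical value, which chance passes in about 1 of 20 sets. Htr5b in morphine-sired 2 stood out at 3.86 TPM, with a ratio of 0.835. Htr1b in morphine-sired 5 stood out at 27.4 TPM, with a ratio of 0.693.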

How the results depend on the processing

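Over 210 limma fits of a receptor gene under an alternative, none was called (smallest adjusted p 0.657), and the log2 difference kept its direction in 176 and reversed in 34. Annotated transcripts alone gave 0.08 for Htr1b. Without the 3 libraries low in serotonergic and cholinergic markers, Htr1d was -0.30 and Htr1f 0.03. Without saline-sired 2 and morphine-sired 2, Htr1b was 0.10 and Htr1d -0.01. Without the 3 libraries highest in serotonergic markers, chosen after seeing the data, Htr1a was 0.07, Htr1b 0.10 and Htr5b 0.07. With the serotonergic score as a term, Htr1b was 0.02, Htr2c -0.12, Htr5b 0.03 and Htr7 -0.01, and with the choroid plexus score Htr1d was -0.15 and Htr1f 0.10. The cause was not tested.

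Leaving out 1 library at a time, the range was -0.07 to 0.07 for Htr1b, -0.20 to 0.16 for Htr1d, -0.14 to 0.04 for Htr1f, -0.07 to 0.14 for Htr2c and -0.54 to 0.03 for Htr5b, whose directions turned. It was -0.36 to -0.05 for Htr1a, -0.30 to -0.08 for Htr2a, 0.20 to 0.36 for Htr3a, -0.24 to -0.05 for Htr4 and 0.02 to 0.20 for Htr7. For levels, Htr2a minus Htr7 ran from -0.08 to 0.06, Htr5b minus Htr1f from -0.20 to 0.13 and Htr7 minus Htr1d from 0.30 to 0.52. With annotated transcripts alone, Htr1b minus Htr1a was 0.24, Htr2a minus Htr7 0.16 and Htr4 minus Htr5b -0.18.

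The count of genes called was 0, with 0 to 1 leaving out a library. That 1 was an unnamed locus without saline-sired 4 (adjusted p 0.0399) and another without saline-sired 6 (0.042). It was 1, AABR07044389.1, without the 3 low libraries (adjusted p 0.0014). Receptor genes at a limma unadjusted p under 0.05, a count added after seeing the data, numbered 0. With annotated transcripts alone there was 1, Htr4. With the choroid plexus score there were 2, Htr1a (-0.44, p 0.0347) and Htr5b (-0.78, p 0.0177), where 3.79% of genes passed. Leaving out a library gave 0 to 1, Htr3a without saline-sired 4 (p 0.041, where 3.26% of genes passed) or 5 (p 0.0302, where 3.16% passed). No paired analysis was possible because the labels pair no libraries across the groups, and the replicate numbers only follow accession order. Depth limits Htr5b and Htr1f most.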
